A study of Mus musculus with 9 samples.

Results

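The semaphorins, plexins and neuropilins form a family of guidance ligands and their receptors, and their RNA was followed here in cultured embryonic mouse heart cells after knockdown of DNMT3a or DNMT3b. Members were the protein-coding genes whose mouse symbol is Sema with a number and a letter, starts with Plxn, or is Nrp1 or Nrp2. This gave 31 of the 43629 genes in the deposited count tables. There were 20 semaphorins (7 of class 3, 6 of class 4, 2 of class 5, 4 of class 6 and 1 of class 7), 9 plexins and 2 neuropilins. The family was chosen with a fall of Sema3e after DNMT3b siRNA in view, so values of the members against control in that group are given as a description. No p-value is given for them there. Their calls are named and counted beside the share over all genes and set which start regions are shown, and nothing is read from them.

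Semaphorins are secreted or membrane-bound proteins that steer axons, blood vessels and migrating cells. Class 3 semaphorins are secreted and mostly bind neuropilins, which have short cytoplasmic tails and signal through plexins of the A and D types. Sema3e is the exception of its class, because it binds Plxnd1 without a neuropilin. The other vertebrate classes are held in the membrane and bind plexins directly. Plexins carry a GTPase-activating domain for small Ras-type GTPases inside the cell. In the developing heart this signalling is known for shaping the outflow tract, the vessels and the pattern of sympathetic nerves. DNMT3a and DNMT3b are the enzymes that place new methyl groups on cytosine, mostly where a C is followed by a G.

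The cells came from ventricles of outbred CD-1 embryos at embryonic day 13.5, pooled by litter, of which the cells slow to attach to plastic were kept. After 48 h in culture they received 0.012 pmol of siRNA by lipofection, and 72 h later they were pulled out on magnetic columns by a VCAM1 antibody. The groups were a pool of 4 siRNAs against Dnmt3a, a pool of 4 against Dnmt3b, and a commercial negative control siRNA, with 3 libraries each. All groups were thus cultured, transfected and sorted alike, and their libraries are called DNMT3a 1 to 3, DNMT3b 1 to 3 and control 1 to 3.

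Each library held between 27852412 and 35896018 reads in genes. Levels are CPM, read counts scaled to a common library total by the TMM method, as mean ± SD over 3 libraries. Dnmt3a stood at 46.5 ± 6.32 CPM in DNMT3a, 228 ± 11.4 CPM in DNMT3b and 259 ± 23.2 CPM in control libraries. Dnmt3b, a low gene, stood at 4.76 ± 0.0964 CPM in DNMT3a, 1.70 ± 0.652 CPM in DNMT3b and 4.30 ± 0.0372 CPM in control libraries. Each targeted gene was therefore lowest in the libraries labelled with its siRNA. The labels call the cells cardiomyocytes, and cardiomyocyte genes were present, with Myh6 (the alpha heavy chain of cardiac myosin) at 266, 298 and 114 CPM per kb and Tnnt2 (cardiac troponin T) at 173, 207 and 103 CPM per kb after DNMT3a siRNA, after DNMT3b siRNA and in controls. Actc1 (cardiac actin) was the cardiomyocyte gene with the highest level per length, at 834, 834 and 244.5 CPM per kb in the same order of groups. Fibroblast genes were present too, from Col1a1 (a chain of type I collagen) at 3235, 3267 and 3650 CPM per kb and Fn1 (fibronectin) at 1885, 1536 and 1863 CPM per kb down to Pdgfra (a growth factor receptor) at 11.5, 20.4 and 18.5 CPM per kb.

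Other cell types were followed by lists of 10 marker genes each, summed in CPM. The cardiomyocyte sum was 5132 to 6762 after DNMT3a siRNA and 6432 to 7761 after DNMT3b siRNA, against 2306 to 2977 in controls, and 8 of its 10 genes were called higher in each knockdown. Epicardial genes, led by Upk3b and Msln, summed to 1444 to 1836 after DNMT3a siRNA and 1335 to 1881 after DNMT3b siRNA, against 2078 to 2425 in controls. Macrophage genes, led by Lyz2 and Csf1r, summed to 8.48 to 17.97 after DNMT3a siRNA and 20.6 to 49.6 after DNMT3b siRNA, against 22.8 to 61.0 in controls. Endothelial and endocardial genes, led by Tek and Nfatc1, summed to 91.7 to 145 after DNMT3a siRNA and 171 to 179 after DNMT3b siRNA, against 106 to 143 in controls. The fibroblast sum was 59760 to 65290 after DNMT3a siRNA, 54960 to 61390 after DNMT3b siRNA and 60770 to 78890 in controls. Its sums overlapped between groups, while 4 of its genes (Pdgfra, Dcn, Fbn1 and Tcf21) were called lower after DNMT3a siRNA, 3 after DNMT3b siRNA and none higher. Smooth muscle and pericyte genes, led by Acta2 and Tagln, summed to 8016 to 9166 after DNMT3a siRNA, 8186 to 9752 after DNMT3b siRNA and 5682 to 8367 in controls. Schwann and neural genes, led by Tubb3 and Erbb3, summed to 110.0 to 138 after DNMT3a siRNA, 47.5 to 69.4 after DNMT3b siRNA and 75.7 to 133 in controls. Among the markers, Th was at 0 in 6 libraries, Sox10 and Stmn2 in 2 each and Fcgr1 in 1. In bulk RNA of this kind, fewer cells of a type and less RNA per cell cannot be told apart.

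**Figure D1:**
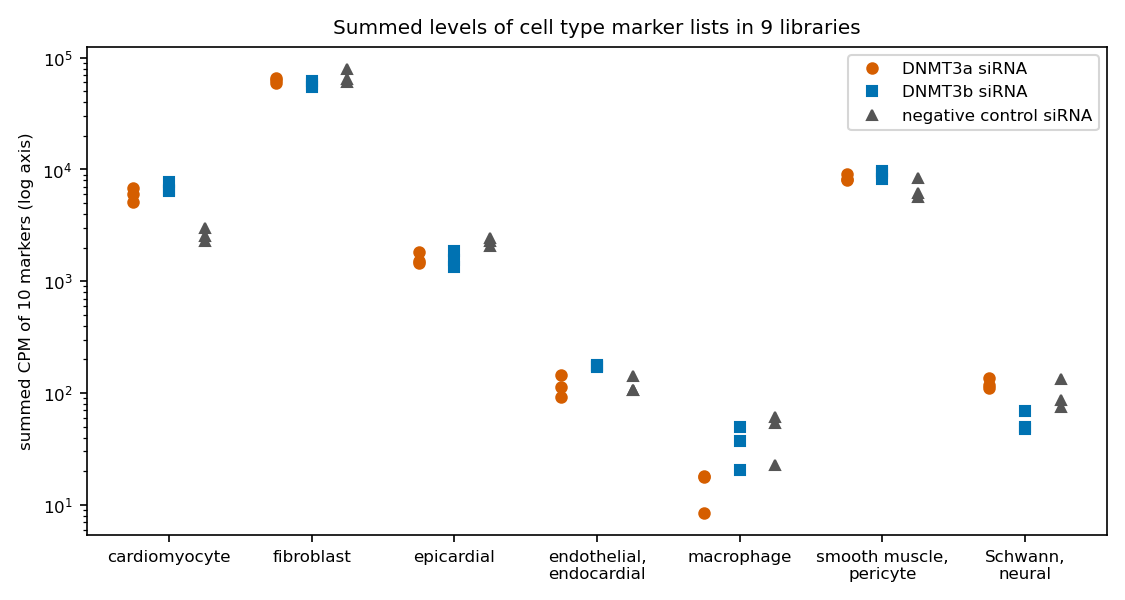
Summed CPM (vertical log axis) of 10 marker genes for each of 7 cell types, with 1 point per library after DNMT3a siRNA, after DNMT3b siRNA and with negative control siRNA. The cardiomyocyte sums of both knockdowns (5132 to 7761 CPM) lie above those of the controls (2306 to 2977 CPM), and the epicardial sums of both (1335 to 1881 CPM) lie below those of the controls (2078 to 2425 CPM).

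The start regions of 3 members are shown because these genes were the members called in the contrast that entered the choice of the family, and because the silenced enzymes act on C followed by G. Each is 300 bases of the GRCm38.p6 assembly from RefSeq, 250 before the transcript start and 50 after it, 5′ to 3′ on the gene's strand, with every CG in capitals. The starts are those of RefSeq: for Sema3e and Sema4a they match the 5′ end of the gene in GENCODE, and for Nrp1 the start lies 469 bases inside it. Sema3e, Nrp1 and Sema4a lie on chromosomes 5, 8 and 3, and the windows are chr5:14025026-14025325 (plus strand), chr8:128358823-128359122 (plus strand) and chr3:88461133-88461432 (minus strand, the outermost of 4 windows of that gene).
Sema3e: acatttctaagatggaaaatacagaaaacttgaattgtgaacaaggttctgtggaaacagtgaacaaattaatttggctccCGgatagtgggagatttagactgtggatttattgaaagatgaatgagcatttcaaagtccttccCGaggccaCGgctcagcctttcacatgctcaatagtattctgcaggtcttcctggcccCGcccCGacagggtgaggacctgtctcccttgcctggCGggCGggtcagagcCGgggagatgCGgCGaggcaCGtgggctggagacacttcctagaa
Nrp1: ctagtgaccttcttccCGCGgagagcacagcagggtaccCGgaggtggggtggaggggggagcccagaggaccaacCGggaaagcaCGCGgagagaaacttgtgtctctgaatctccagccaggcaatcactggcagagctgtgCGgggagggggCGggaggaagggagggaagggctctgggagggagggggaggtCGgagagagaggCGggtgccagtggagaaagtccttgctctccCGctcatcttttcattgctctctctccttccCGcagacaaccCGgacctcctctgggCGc
Sema4a: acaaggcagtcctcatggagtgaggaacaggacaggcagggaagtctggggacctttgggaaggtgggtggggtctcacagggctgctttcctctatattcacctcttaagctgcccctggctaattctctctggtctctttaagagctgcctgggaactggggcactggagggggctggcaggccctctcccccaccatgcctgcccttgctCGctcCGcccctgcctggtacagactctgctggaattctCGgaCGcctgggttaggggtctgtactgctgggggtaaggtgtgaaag
The Sema3e window holds 11 CG, the Nrp1 window 14 and the Sema4a window 4. The other windows of Sema4a hold more, at 5, 14 and 7 CG. The letters CG read the same on both strands, and 94.6% of the 32851 windows in the table hold at least 1, with a median of 7. For 26 of the 31 members the table had 37 windows, with a median of 15 CG. Their range was 2 (Sema3a and a Sema4d window) to 42 (Sema3c), and 25 of the 37 windows were above the median of all windows. The starts of the windows with 2 CG lie far inside the GENCODE gene, by 271370 bases for Sema3a and 37064 bases for Sema4d. DNA methylation was not analysed here, so these letters describe the windows and say nothing of their methylation.

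Levels between genes were compared as CPM per kb of exon, averaged over the 9 libraries. Plxnb2, the receptor of class 4 semaphorins such as Sema4c, stood at the top with a mean of 104 CPM per kb. It was followed by Sema3f, a neuropilin 2 ligand, at 54.1, Sema3d at 45.1, Plxna1 at 44.3 and Plxna4 at 22.9 CPM per kb. Nrp1 at 18.7, Sema3e at 15.6, Nrp2 at 15.3, Plxnb1 at 10.4 and Sema3c at 9.43 CPM per kb came next. The ranges over libraries overlapped between neighbours in this order except below Plxnb2, Plxna1, Nrp2 and Sema5a (4.46 CPM per kb). In all, 17 members stood above the median of the 16561 genes tested, which was 4.13 CPM per kb. At the low end Sema4f averaged 0.136, Plxnb3 0.0444 and Sema5b 0.0248 CPM per kb. Plxnb3, with counts of 4 to 16, and Sema5b, with counts of 2 to 11, did not pass the filter on low counts, so 29 members were tested.

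**Figure D2:**
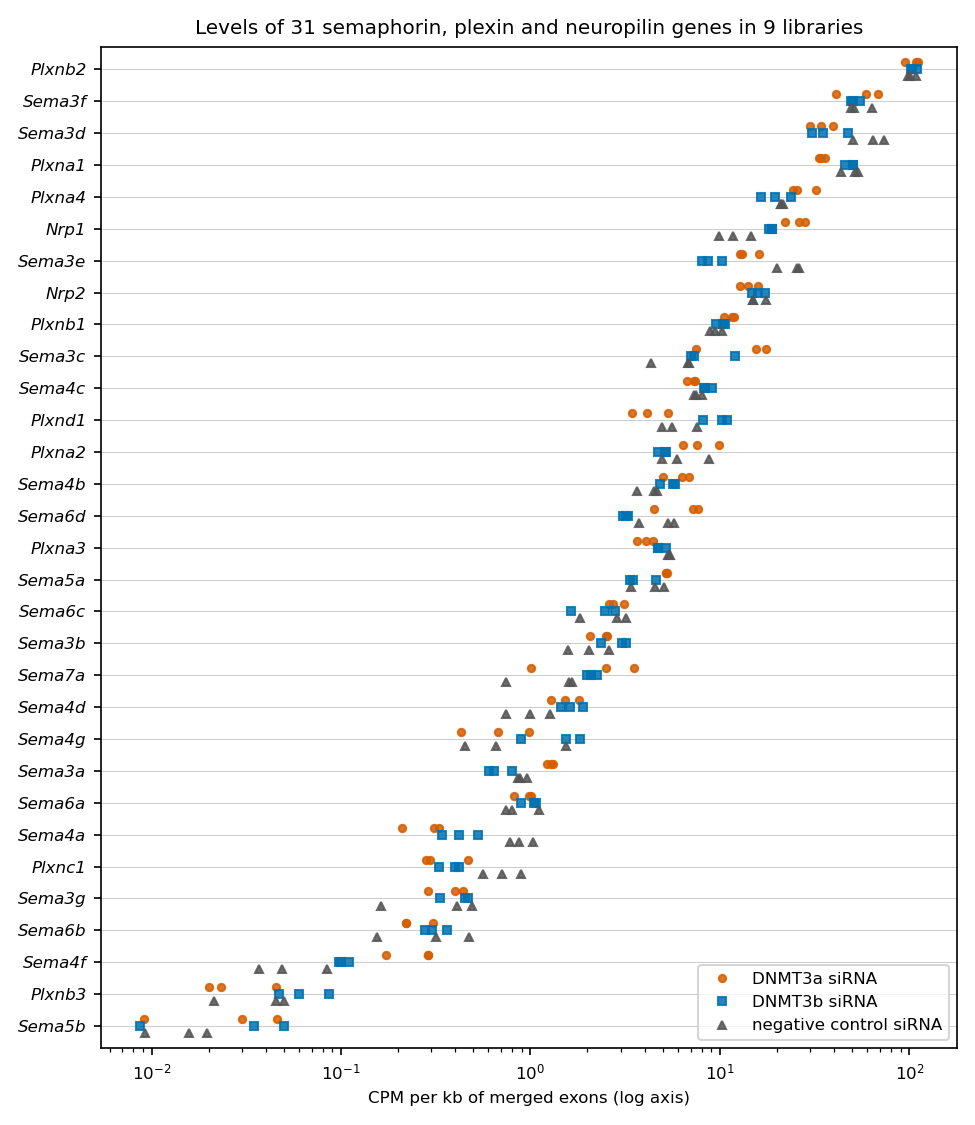
Level of each of the 31 genes in CPM per kb of merged exons (horizontal log axis), with 1 point per library after DNMT3a siRNA, after DNMT3b siRNA and with negative control siRNA. Genes are ordered by their mean over 9 libraries, which runs from 104 CPM per kb for Plxnb2 to 0.0248 CPM per kb for Sema5b.

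The makeup of the family was read from sums per kb. Class 3 ligands summed to 122 ± 22.8 CPM per kb after DNMT3a siRNA, 111 ± 12.6 after DNMT3b siRNA and 150.5 ± 22.7 in controls. That was 31.1%, 29.2% and 36.7% of the family's summed level. The DNMT3a libraries overlapped with the controls in this sum, and the DNMT3b libraries lay below them. The sum includes Sema3e, at 8.96 CPM per kb after DNMT3b siRNA and 23.8 in controls. It also includes Sema3d, which differed by more CPM per kb, at 34.6 after DNMT3a siRNA, 37.8 after DNMT3b siRNA and 62.75 in controls. Of the 7 class 3 genes, 4 had a negative log2 fold change after DNMT3b siRNA and 3 a positive one. After DNMT3a siRNA these were 2 and 5. The fall of Sema3e entered the choice of the family, so nothing is read from the place of the DNMT3b libraries in this sum. Neuropilins summed to 39.7 ± 3.14 CPM per kb after DNMT3a siRNA, 34.5 ± 0.860 after DNMT3b siRNA and 27.8 ± 2.58 in controls, or 10.3%, 9.09% and 6.86% of the family. All knockdown libraries were above all controls in this sum, and for the DNMT3b libraries this is a description. Nrp1 stood at 25.5 CPM per kb after DNMT3a siRNA, 18.6 after DNMT3b siRNA and 12.05 in controls. Nrp2, the other gene in the sum, did not rise alike, at 14.2, 15.95 and 15.8 CPM per kb. The plexins summed to 195 ± 12.9 CPM per kb after DNMT3a siRNA, 204 ± 6.99 after DNMT3b siRNA and 201 ± 8.50 in controls, or 50.0% ± 1.47, 53.8% ± 1.52 and 49.3% ± 1.47 of the family. These sums and shares were not tested. In rank by level, Sema3e was in place 8 after DNMT3a siRNA and place 10 after DNMT3b siRNA, against place 5 in controls. Plxnd1, its receptor, was in place 16 after DNMT3a siRNA and place 9 after DNMT3b siRNA, against place 12 in controls.

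DNMT3a siRNA was compared with the control siRNA by edgeR's quasi-likelihood F test over all 16561 genes, and genes with an adjusted p under 0.05 were called. This comparison took no part in the choice of the family, although it uses the control libraries in which the fall of Sema3e was seen. Of the 29 members tested, 4 rose (Nrp1, Sema3a, Sema4b and Sema4f), 6 fell (Sema3d, Sema3e, Sema4a, Plxna1, Plxna3 and Plxnc1) and 19 did not pass. Sema4f passed the filter on low counts through the knockdown libraries, so its call adds nothing to the count, which is 9 under a filter of 1 CPM that leaves it out. The fall of Sema3e rests on the control libraries that entered the choice of the family, so its call adds nothing to the count either. The share called over all genes was 10.1%, with 4.87% higher and 5.22% lower. The median log2 fold change was 0.08 over the members tested and 0.02 over all genes. By role, 1 of 7 class 3 ligands rose and 2 fell, Sema3e among the latter. Of 12 membrane-bound semaphorins 2 rose, Sema4b and Sema4f, and 1 fell. Among the plexins 3 of 8 fell and none rose, and 1 of 2 neuropilins rose. Sema3e and Sema4f are also in the counts of members without overlap and of blocked calls that follow, and nothing is read from either gene there. The libraries of both groups did not overlap for 15 members, 9 higher and 6 lower, against 26.7% of all genes. The count of 10 members called dropped to 6 when control 3, DNMT3a 1 or DNMT3a 3 was left out. With the library number as a block, 14 members were called, 7 higher and 7 lower, against 14.3% of all genes.

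**Figure D3:**
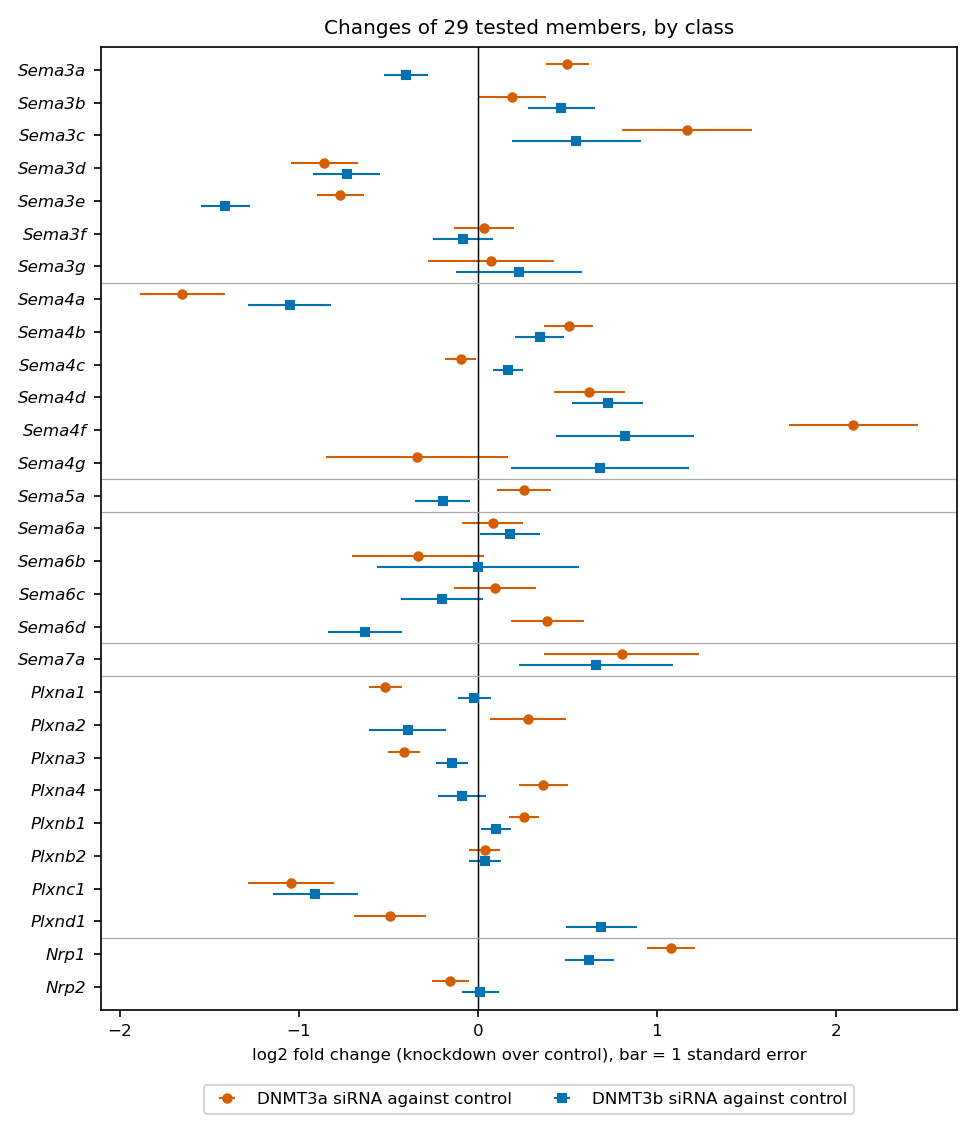
Log2 fold change over control (horizontal axis, bar = 1 standard error) of the 29 tested members after DNMT3a siRNA and after DNMT3b siRNA, grouped by class from class 3 semaphorins down to neuropilins. Sema3e lies at -0.77 after DNMT3a siRNA and -1.41 after DNMT3b siRNA, Nrp1 at 1.08 and 0.62, and Plxnd1 at -0.49 and 0.69.

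Among the secreted ligands, Sema3e (chromosome 5, 14025276 to 14256689, GRCm38) had 121, 119 and 149.5 CPM in DNMT3a 1 to 3, against 243, 185 and 236 CPM in control 1 to 3. Every DNMT3a library was below every control. The gene fell 1.70-fold, with a log2 fold change of -0.77 ± 0.13 (standard error). The controls are the libraries against which the fall that chose the family was seen. The value is therefore given as a description, with no p-value. Between libraries of the same number the log2 differences lay between -1.0 and -0.64.

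Sema3d, a ligand known from patterning of the pulmonary veins, had 258, 295 and 340 CPM in DNMT3a 1 to 3, against 550.0, 433 and 635 CPM in control 1 to 3. These libraries did not overlap either, although the controls were wide apart. Sema3d fell 1.81-fold, at -0.86 ± 0.19 on the log2 scale (adjusted p = 0.0187). The call was lost without control 1 (adjusted p = 0.0565), control 3 (0.0680), DNMT3a 1 (0.0749) or DNMT3a 2 (0.0546), and when the filter on low counts was dropped (0.0857). Beside Sema3d and Sema3e the epicardial marker list moved the same way: 4 of its 10 genes were called lower and 1 higher after DNMT3a siRNA, and its sums of 1444 to 1836 CPM lay below the 2078 to 2425 CPM of the controls. In the fibroblast list 4 of 10 genes were called lower and none higher, and Tcf21 stands in both lists. The part of these cells in the results was not tested.

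Sema3a, the classical repellent of axons that signals through Nrp1, had 17.01, 18.2 and 17.7 CPM in DNMT3a 1 to 3, against 11.9, 13.3 and 12.2 CPM in control 1 to 3. All DNMT3a libraries were higher than all controls. The gene rose 1.42-fold, with a log2 fold change of 0.50 ± 0.12 (adjusted p = 0.0241). That call was lost without control 1 (adjusted p = 0.0734), control 3 (0.0781), DNMT3a 1 (0.0643), DNMT3a 2 (0.0694) or DNMT3a 3 (0.0674). Sema3a, Sema3c, Sema3d and Sema3e, all 4 members on chromosome 5, lie within 5.35 Mb of it, and Sema3a alone of them was called higher while Sema3d and Sema3e were called lower.

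Sema3c, which is needed for septation of the outflow tract, had 111, 53.2 and 125 CPM in DNMT3a 1 to 3, against 49.0, 30.9 and 48.6 CPM in control 1 to 3. DNMT3a 2 and control 2 were the low library of their group. A log2 fold change of 1.17 ± 0.36 did not reach the threshold (adjusted p = 0.0884), but it did with the library number as a block (adjusted p = 0.0188), with DESeq2 (0.0214) and without DNMT3a 2 (0.0197). Sema3f, among the most abundant members, had 307, 214 and 353 CPM in DNMT3a 1 to 3, against 266, 254 and 331 CPM in controls. Its groups overlapped, with a log2 fold change of 0.04 ± 0.17 (adjusted p = 0.928). Sema3b and Sema3g had log2 fold changes of 0.19 and 0.08 and were not called.

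Sema4a, a class 4 semaphorin of immune cells and vessels that also binds Plxnd1, had 1.14, 1.79 and 1.67 CPM in DNMT3a 1 to 3, against 4.21, 4.68 and 5.59 CPM in control 1 to 3. These stand for counts of 35, 59 and 51 reads against 151, 144 and 151 reads. All DNMT3a libraries were below all controls. It fell 3.14-fold, by the largest factor among the members called lower, with a log2 fold change of -1.65 ± 0.24 (adjusted p = 0.00192). It was called under all 18 settings tried.

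Plxnc1, the plexin that binds Sema7a, had 2.34, 3.91 and 2.45 CPM in DNMT3a 1 to 3, against 5.88, 4.72 and 7.40 CPM in control 1 to 3. Its groups did not overlap, though DNMT3a 2 came close to control 2. Plxnc1 had a log2 fold change of -1.04 ± 0.24 (adjusted p = 0.0196). The call was lost without control 3 (adjusted p = 0.0743), DNMT3a 1 (0.0811) or DNMT3a 3 (0.0734), and when only the 6 libraries compared were fitted (0.0520). Beside Sema4a and Plxnc1, both low genes that blood cells also use, 3 of the 10 macrophage markers were called lower and none higher. The macrophage sums were 8.48 to 17.97 CPM after DNMT3a siRNA and 22.8 to 61.0 CPM in controls, and Csf1r, the macrophage growth factor receptor, had a log2 fold change of -1.18 (adjusted p = 0.0165). Their part in the results was not tested.

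Sema4f, a transmembrane semaphorin studied mostly in neurons and Schwann cells, had counts of 47, 50 and 28 reads in DNMT3a 1 to 3, against 16, 6 and 7 reads in control 1 to 3. That was 1.53, 1.52 and 0.916 CPM against 0.446, 0.195 and 0.259 CPM. The groups did not overlap, but the gene was near the detection limit in controls. Only 1 control library was past the low-count filter, so the gene was tested because of the knockdown libraries. Its log2 fold change of 2.10 ± 0.36 is therefore given as a description, with no p-value.

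Sema4b had 35.8, 28.2 and 38.7 CPM in DNMT3a 1 to 3, against 25.2, 20.6 and 26.3 CPM in control 1 to 3. DNMT3a 2 stood just above the highest control. On the log2 scale the rise was 0.51 ± 0.14 (adjusted p = 0.0394). This call was the least steady: it was lost without control 1 (adjusted p = 0.0659), control 2 (0.0870), control 3 (0.0589), DNMT3a 1 (0.124), DNMT3a 3 (0.130), DNMT3b 2 (0.0617) or DNMT3b 3 (0.0727), with limma-voom (0.0505) and with only the 6 libraries compared (0.0937). Sema4d, the ligand of Plxnb1, had 9.90, 11.7 and 13.9 CPM in DNMT3a 1 to 3, against 5.71, 9.72 and 7.66 CPM in controls. Its log2 fold change was 0.62 ± 0.20 (adjusted p = 0.0752), and it passed with the library number as a block (adjusted p = 0.0129), with no filter on low counts (0.0143), with DESeq2 (0.0352) and without control 2 (0.0210).

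None of the other membrane-bound semaphorins tested was called. Sema6d, a ligand of Plxna1 studied in the chick heart, had a log2 fold change of 0.39 ± 0.20 (adjusted p = 0.278), which passed without DNMT3a 2 (adjusted p = 0.0404). Sema7a, the anchored ligand of Plxnc1 and integrins, had one of 0.80 ± 0.43 (adjusted p = 0.294), which passed without DNMT3a 2 (adjusted p = 0.0423). Sema4c, Sema4g, Sema5a, Sema6a, Sema6b and Sema6c had log2 fold changes between -0.34 and 0.26.

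Of the plexins, Plxna1, a signalling partner of both neuropilins, had 325.5, 303 and 311 CPM in DNMT3a 1 to 3, against 465, 395 and 484 CPM in control 1 to 3. The DNMT3a libraries were close together and all below the controls. Its log2 fold change was -0.52 ± 0.09 (adjusted p = 0.00600), a 1.43-fold fall, called under all 18 settings. An exon of Plxna1 shares 970 bases with Gm26811 on the opposite strand, and without a known strand setting of the counting reads of both cannot be told apart there. The same holds for 110 bases of Plxna4 (with Plxna4os3), 257 of Plxnb1 (with Gm7628) and 334 of Sema4c (with D430040D24Rik).

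Plxna3, which pairs with Nrp2 for Sema3f, had 35.0, 28.8 and 32.1 CPM in DNMT3a 1 to 3, against 42.9, 42.6 and 41.8 CPM in control 1 to 3. The controls were nearly equal and all above the DNMT3a libraries. Its log2 fold change was -0.41 ± 0.09 (adjusted p = 0.0167), and the call was lost without DNMT3a 3 (adjusted p = 0.0506). Plxnd1, the receptor of Sema3e, had 25.1, 39.0 and 30.0 CPM in DNMT3a 1 to 3, against 36.0, 55.6 and 40.6 CPM in control 1 to 3. The groups overlapped, and library 2 was the highest in both. At -0.49 ± 0.20 on the log2 scale it was not called (adjusted p = 0.164), except with the library number as a block (adjusted p = 0.00506).

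The 2 other plexins among the most abundant members were not called. Plxnb2 had 839, 735 and 858 CPM in DNMT3a 1 to 3, against 758, 778 and 833 CPM in controls, with overlapping groups and a log2 fold change of 0.04 ± 0.09 (adjusted p = 0.848). Plxna4, the usual partner of Nrp1 for Sema3a, had 345, 359.6 and 454 CPM in DNMT3a 1 to 3, against 298, 298 and 302.5 CPM in controls. Its libraries did not overlap, yet the log2 fold change of 0.37 ± 0.14 did not pass (adjusted p = 0.119). Plxnb1, the Sema4d receptor, had a log2 fold change of 0.26 ± 0.09 (adjusted p = 0.0833), which passed with the library number as a block (adjusted p = 0.0459) and with library size alone as scaling (adjusted p = 0.0405). Plxna2 had one of 0.28 ± 0.21 (adjusted p = 0.480).

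Nrp1 (chromosome 8, 128358604 to 128503363, GRCm38), the receptor shared by class 3 semaphorins and VEGF-A, had 276, 256 and 216 CPM in DNMT3a 1 to 3, against 143, 114.5 and 96.6 CPM in control 1 to 3. Each DNMT3a library was well above the highest control. Nrp1 rose 2.11-fold, with a log2 fold change of 1.08 ± 0.14 (adjusted p = 9.10e-04), and was called under all 18 settings with adjusted p up to 0.0101. Nrp2, the Sema3f receptor, averaged 168 ± 18.6 CPM after DNMT3a siRNA and 187 ± 16.9 CPM in controls, with a log2 fold change of -0.15 ± 0.10 (adjusted p = 0.407). The cardiomyocyte marker list moved with Nrp1: 8 of its 10 genes were called higher and none lower, and its sums of 5132 to 6762 CPM lay above the 2306 to 2977 CPM of the controls. The part of these cells in the result was not tested.

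**Figure D4:**
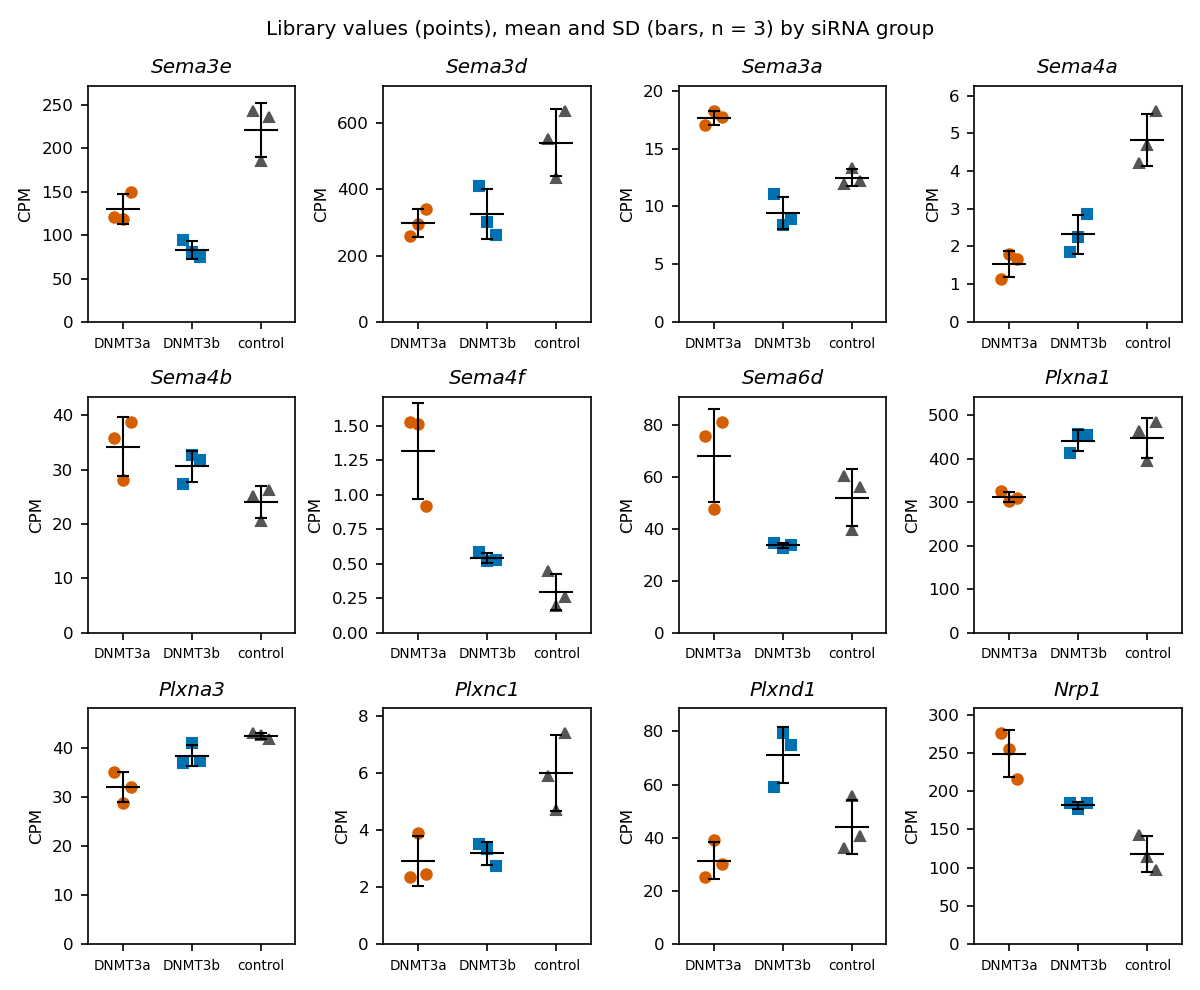
CPM of the 12 members called in any comparison, with 1 point per library and the mean and SD of 3 libraries as bars, in panels with a vertical axis from 0 and the groups DNMT3a siRNA, DNMT3b siRNA and control from left to right. Sema3e reads 74.8 to 94.8 CPM after DNMT3b siRNA against 185 to 243 CPM in controls, and Plxnd1 reads 59.1 to 79.3 CPM after DNMT3b siRNA against 25.1 to 39.0 CPM after DNMT3a siRNA.

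DNMT3b siRNA was set against the control siRNA in the same fit, and since this contrast entered the choice of the family its values are a description. It shares the control libraries with the comparison above. Of the 29 members tested 3 were called, with Nrp1 higher and Sema3e and Sema4a lower, and over all genes the share called was 5.64%, with 3.52% higher and 2.12% lower. Nothing is read from this count, since Sema3e in this contrast chose the family. The number of members called was 1 without control 3 or without DNMT3b 2, 9 without control 2, and 5 without DNMT3a 2. The call of Nrp1 was lost without control 3, DNMT3b 1, DNMT3b 2 or DNMT3b 3. That of Sema4a was lost without control 3, DNMT3b 1 or DNMT3b 2. Libraries of both groups did not overlap for 15 members, 8 higher and 7 lower, against 26.1% of all genes. The median log2 fold change was 0.01 over the members tested and 0.00 over all genes.

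Sema3e had 94.8, 80.1 and 74.8 CPM in DNMT3b 1 to 3, against 243, 185 and 236 CPM in control 1 to 3. All DNMT3b libraries were lower than all controls and also lower than all DNMT3a libraries. Its mean was 83.2 ± 10.3 CPM after DNMT3b siRNA and 221 ± 31.6 CPM in controls, a log2 fold change of -1.41 ± 0.13 that left 37.7% of the control level. Differences between libraries of the same number were -1.36, -1.21 and -1.66 on the log2 scale.

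Of the other class 3 ligands, Sema3d had 409.9, 302 and 262.5 CPM in DNMT3b 1 to 3, against 550.0, 433 and 635 CPM in controls. Its libraries did not overlap, and the log2 fold change was -0.73 ± 0.19. Sema3a had 11.04, 8.38 and 8.94 CPM in DNMT3b 1 to 3, against 11.9, 13.3 and 12.2 CPM in controls. All 3 were below the controls, the opposite side from the DNMT3a libraries, with a log2 fold change of -0.40 ± 0.12. Sema3c had 85.8, 52.2 and 50.3 CPM in DNMT3b 1 to 3, against 49.0, 30.9 and 48.6 CPM in controls, with a log2 fold change of 0.55 ± 0.36. Sema3f had 262.5, 287 and 254.5 CPM in DNMT3b 1 to 3 and overlapped with the controls, at -0.08 ± 0.17 on the log2 scale. Sema3b and Sema3g had log2 fold changes of 0.47 and 0.23. The epicardial list again lay below the controls, at 1335 to 1881 CPM against 2078 to 2425 CPM, with 2 genes called lower and none higher. The fibroblast list had 3 genes called lower and none higher, and the part of either list was not tested.

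The membrane-bound Sema4a had 1.84, 2.27 and 2.87 CPM in DNMT3b 1 to 3, against 4.21, 4.68 and 5.59 CPM in controls. It was low in all DNMT3b libraries, with 60, 70 and 82 reads against 151, 144 and 151 reads. The log2 fold change was -1.05 ± 0.23. Here the macrophage sums overlapped, at 20.6 to 49.6 CPM after DNMT3b siRNA and 22.8 to 61.0 CPM in controls. None of the 10 macrophage genes was called, but their median log2 fold change was -0.84, with Lyz2 alone higher, at 0.51. Their part in the Sema4a value was not tested. Sema4b had 27.3, 32.6 and 31.9 CPM in DNMT3b 1 to 3 and Sema4f 0.584, 0.518 and 0.526 CPM. Both lay above all of their controls, at 0.35 ± 0.14 and 0.82 ± 0.39 on the log2 scale. Sema6d had 34.6, 32.7 and 33.8 CPM in DNMT3b 1 to 3, against 60.5, 39.5 and 56.2 CPM in controls. The DNMT3b libraries were nearly equal and all below the controls, with a log2 fold change of -0.63 ± 0.21. Sema4d had one of 0.73 ± 0.20, Sema4g of 0.68 ± 0.50 and Sema7a of 0.66 ± 0.43. Sema4c, Sema5a, Sema6a, Sema6b and Sema6c lay between -0.20 and 0.18.

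Of the plexins, Plxnd1 had 59.1, 79.3 and 75.0 CPM in DNMT3b 1 to 3, against 36.0, 55.6 and 40.6 CPM in control 1 to 3. All DNMT3b libraries stood above all controls, with a log2 fold change of 0.69 ± 0.20. The endothelial and endocardial sums also lay above the controls, at 171 to 179 CPM against 106 to 143 CPM. Of the 10 genes 1 was called higher, and their median log2 fold change was 0.95, with Npr3 alone lower, at -0.14. Their part in the Plxnd1 value was not tested. Plxnc1 had 3.504, 3.33 and 2.73 CPM in DNMT3b 1 to 3, against 5.88, 4.72 and 7.40 CPM in controls, with no overlap and a log2 fold change of -0.91 ± 0.24. Plxna1 had 414, 456 and 455.6 CPM in DNMT3b 1 to 3 and overlapped with the controls, at -0.02 ± 0.09 on the log2 scale. Plxna3, with 37.0, 40.9 and 37.3 CPM in DNMT3b 1 to 3, lay just under its controls, at -0.14 ± 0.09. Plxnb2 had 801, 851 and 787 CPM and Plxna4 336, 276 and 233 CPM in DNMT3b 1 to 3, both overlapping with controls, at 0.04 and -0.09 on the log2 scale. Plxna2 and Plxnb1 had log2 fold changes of -0.39 and 0.10.

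Nrp1 had 184, 177 and 184.5 CPM in DNMT3b 1 to 3, against 143, 114.5 and 96.6 CPM in controls. The DNMT3b libraries were close together, above every control and below every DNMT3a library. The log2 fold change was 0.62 ± 0.13, or 1.54-fold. The cardiomyocyte sums were higher here too, at 6432 to 7761 CPM against 2306 to 2977 CPM, and their part was not tested. Nrp2 averaged 189 ± 14.9 CPM after DNMT3b siRNA and 187 ± 16.9 CPM in controls, at 0.01 ± 0.10 on the log2 scale.

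The knockdowns were then compared directly, which tests the difference between them. This comparison shares the DNMT3b libraries with the contrast that entered the choice of the family. After DNMT3a siRNA relative to DNMT3b siRNA, 4 of the 29 members tested were higher (Sema3a, Sema3e, Sema4f and Sema6d) and 2 lower (Plxna1 and Plxnd1), while 9.55% of all genes were called, 4.47% higher and 5.08% lower. Sema3e is low in the DNMT3b libraries that entered the choice of the family, so its call adds nothing to this count. The count of 6 members dropped to 3 without DNMT3b 2 or DNMT3b 3. Libraries did not overlap for 13 members, against 32.3% of all genes, and the median log2 fold change was -0.00 over the members and 0.01 over all genes.

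Plxnd1 was 2.27-fold lower after DNMT3a siRNA, at 25.1 to 39.0 CPM, than after DNMT3b siRNA, at 59.1 to 79.3 CPM. The log2 fold change was -1.18 ± 0.20 (adjusted p = 0.00824), called under all settings. Its ligand Sema3e was higher after DNMT3a siRNA, at 119 to 149.5 CPM, than after DNMT3b siRNA, at 74.8 to 94.8 CPM, a log2 fold change of 0.64 ± 0.13 given as a description. The endothelial and endocardial sums did not overlap, at 91.7 to 145 CPM after DNMT3a siRNA and 171 to 179 CPM after DNMT3b siRNA. None of the 10 genes was called, but their median log2 fold change was -1.06, with Npr3 alone higher, at 0.24. Their part in the Plxnd1 difference was not tested.

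Sema3a was 1.87-fold higher after DNMT3a siRNA than after DNMT3b siRNA, at 17.01 to 18.2 CPM against 8.38 to 11.04 CPM. Its log2 fold change was 0.90 ± 0.12 (adjusted p = 0.00201), called under all settings. Plxna1 was lower, at 303 to 325.5 CPM against 414 to 456 CPM, with a log2 fold change of -0.50 ± 0.09 (adjusted p = 0.00921), called under all settings. Sema6d was 2.02-fold higher, at 47.6 to 81.1 CPM against 32.7 to 34.6 CPM, with a log2 fold change of 1.02 ± 0.21 (adjusted p = 0.0166). Its call was lost without DNMT3a 1 (adjusted p = 0.0665), DNMT3a 3 (0.0575), DNMT3b 1 (0.0530), DNMT3b 2 (0.0769) or DNMT3b 3 (0.0723), and with no filter on low counts (0.0746).

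Sema4f had a log2 fold change of 1.28 ± 0.34 between the knockdowns (adjusted p = 0.0395). This was lost without control 3 (adjusted p = 0.0504), DNMT3a 1 (0.142), DNMT3a 2 (0.0864), DNMT3b 1 (0.0827), DNMT3b 2 (0.142) or DNMT3b 3 (0.137). Members not called included Nrp1 at 0.46 ± 0.13 (adjusted p = 0.0586), Plxna2 at 0.67 ± 0.22 (adjusted p = 0.0901) and Sema4a at -0.60 ± 0.24 (adjusted p = 0.147). Nrp1 was called in 6 of 18 settings, among them without control 1 (adjusted p = 0.0227) or control 3 (0.0338), and Plxna2 in 5 of 18, among them without control 1 (0.0200) or control 2 (0.0485). Sema5a (adjusted p = 0.0898) was called in 5 of 18 and Plxna4 (0.0622) in 4 of 18. With the library number as a block, calls were gained by Nrp1 (adjusted p = 0.0149), Plxna2 (0.0353), Sema4c (0.0490), Sema4g (0.00380) and Sema5a (0.0158). Sema3d, Sema3f, Plxnb2 and Plxnc1 had log2 fold changes from -0.14 to 0.12 and were not called.

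Beyond the ligands and receptors, 69 partners of semaphorin signalling were followed (co-receptors, other neuropilin ligands, GTPases with their regulators, effectors of the cytoskeleton, and proteases that cut semaphorins), of which L1cam and Timd2 were too low to test. After DNMT3a siRNA, 4 of 67 rose and 3 fell, against 10.1% of all genes called, with a median log2 fold change of -0.03. Rras2, a small Ras-type GTPase, averaged 120 ± 2.29 CPM after DNMT3a siRNA and 198.5 ± 12.5 CPM in controls, a log2 fold change of -0.73 ± 0.08 (adjusted p = 5.00e-04). The co-receptor Ptk7 had a log2 fold change of -0.56 ± 0.09 (adjusted p = 0.00286), and Met, the receptor of hepatocyte growth factor and a partner of B-type plexins, one of -0.85 ± 0.17 (adjusted p = 0.0133). Itga9, an integrin chain, rose by 0.69 ± 0.10 (adjusted p = 0.00149), Itga1, the integrin chain used by Sema7a, by 0.36 ± 0.09 (adjusted p = 0.0246), and Fyn, a kinase that acts below Plxna2 in Sema3a signalling, by 0.31 ± 0.07 (adjusted p = 0.0207). No neuropilin ligand and no protease of the list was called. Here and in the 2 comparisons below, calls of single partners come from the fit reported and were not followed under the other settings.

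After DNMT3b siRNA, 3 of 67 partners rose and 3 fell against control, beside 5.64% of all genes, with a median log2 fold change of -0.09. Itga9 had a log2 fold change of 0.81 ± 0.10 (adjusted p = 9.45e-04). The receptor Kdr, which takes VEGF-A together with Nrp1, rose to 4.10 ± 0.105 CPM after DNMT3b siRNA, against 2.02 ± 0.448 CPM in controls (log2 fold change 1.02 ± 0.23, adjusted p = 0.0276). Kdr is also an endothelial gene. Cd36, a scavenger receptor, rose by 1.19 ± 0.28 (adjusted p = 0.0317). Vegfd, a lymphatic growth factor, fell to 49.6 ± 4.33 CPM after DNMT3b siRNA, against 104 ± 24.1 CPM in controls (log2 fold change -1.07 ± 0.17, adjusted p = 0.00545). Its receptor Flt4, which also works with Nrp2, had a log2 fold change of -0.61 ± 0.14 (adjusted p = 0.0312), and the sheddase Adam17 one of -0.28 ± 0.07 (adjusted p = 0.0450).

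Between the knockdowns, 5 of 67 partners were higher after DNMT3a siRNA and 3 lower, beside 9.55% of all genes, with a median log2 fold change of 0.03. Vegfd differed most clearly, at 129 ± 21.1 CPM in DNMT3a libraries and 49.6 ± 4.33 CPM in DNMT3b libraries, a log2 fold change of 1.38 ± 0.17 (adjusted p = 0.00145). Rras2 and Ptk7 were lower after DNMT3a siRNA, at -0.63 ± 0.08 (adjusted p = 0.00172) and -0.53 ± 0.09 (adjusted p = 0.00529) on the log2 scale. Itga1 at 0.46 ± 0.09 (adjusted p = 0.00961), Limk2, a kinase that acts on cofilin, at 0.39 ± 0.08 (adjusted p = 0.0180), and Dpysl5, of the collapsin response mediator family, at 0.98 ± 0.21 (adjusted p = 0.0161) were higher.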

How the data were processed

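Poly(A) RNA of 9 libraries was sequenced on an Illumina NextSeq500, with a kit that the labels' protocols do not describe as keeping strand. The authors deposited whole-number read counts per gene and library, not normalised. The submitters' processing notes name FastQC, TopHat2, HTSeq and the mm10/GRCm38 build, and neither versions nor the annotation release nor the strand setting is given in the sources used here. Summary lines that name no gene, 49.2% to 56.2% of a library's total, stayed out of library sizes and tests. Alignments that were not unique made up 36.6% to 40.1% after DNMT3a siRNA, 41.5% to 42.5% after DNMT3b siRNA and 41.3% to 42.5% in controls.

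Symbols, biotypes and merged exon lengths came from the GENCODE mouse annotation of GRCm38. Counts were fitted with edgeR 4.0.16 in R 4.3.3 (filterByExpr with a minimum count of 10 and a minimum total of 15, TMM scaling, robust quasi-likelihood fit of 9 libraries with group as the only term, 6 residual degrees of freedom, biological coefficient of variation 0.154), which left 16561 genes. Each pair of groups was tested by the two-sided quasi-likelihood F test, with Benjamini-Hochberg adjustment over all genes tested. Standard errors are the log2 fold change over the square root of F. The procedure was tested on simulated data. CPM and CPM per kb used the same scaling. The depth, 27852412 to 35896018 reads in genes per library, sets the precision of low genes.

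The members, the gene lists and the tests were chosen with earlier results of these data known. Members called in any comparison, Sema3e and the 5 members with the highest level per kb were given library by library, and at most 6 called partners per comparison were named by the smallest adjusted p. The labels number libraries 1 to 3 in each group and do not name the litter or culture of each, so the p-values reflect the spread between these samples alone, and it may be technical. Deviations from the group mean correlated between same-numbered DNMT3a and control libraries (r = 0.434, 0.513 and 0.459 across genes). The library number was therefore taken to pair them in an alternative fit, with that number as a block. The fit reported had no such term, and blocked values are given where they change a call. Replicates differed by more than counting noise (chi-square per degree of freedom 6.42 to 59.7), so none was counted as a duplicate. Alternatives were other scaling (RLE size factors, library size alone), other filters (none, or 1 CPM in 3 libraries), other tools (DESeq2 1.42.0 and voom of limma 3.58.1), the 2 groups alone, the replicate block and each library left out. Tables and figures were made with Python 3.11.15, pandas 2.3.3 and matplotlib 3.10.9.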

Additional observations from a re-analysis of the deposited data

How the results depend on the processing

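Genes called after DNMT3a siRNA against control numbered 1671 and members 10. With only the 2 groups in the fit the gene count was 946. After DNMT3b siRNA against control, 934 genes and 3 members were called, and the gene count was 1715 with DESeq2 and 1801 with the replicate block. The 3 members became 5 with RLE size factors, no filter, the filter of 1 CPM or only the 2 groups, 9 with DESeq2 and 8 with the replicate block. Between the knockdowns, 1582 genes and 6 members were called, against 2513 genes and 11 members with the replicate block and 11 members with DESeq2. With each library left out in turn, the counts ran from 868 to 1839 genes and 6 to 11 members after DNMT3a siRNA, from 287 to 1781 genes and 1 to 9 members after DNMT3b siRNA, and from 524 to 1962 genes and 3 to 8 members between the knockdowns. The gene count after DNMT3a siRNA moved by over 1.5 times without DNMT3a 1 (868), DNMT3a 3 (1038) or control 3 (971). After DNMT3b siRNA it did so without DNMT3b 2 (384), DNMT3b 3 (287), control 1 (534), control 2 (1781) or control 3 (449), and between the knockdowns without DNMT3a 1 (541), DNMT3a 3 (768), DNMT3b 2 (524) or DNMT3b 3 (555). Fits without a library or a group hold fewer samples; for the other shifts the cause was not tested.

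Same-numbered libraries correlated at 0.212, 0.101 and 0.0334 between DNMT3b siRNA and control, and at 0.161, 0.0776 and 0.0414 between the knockdowns, so there the block rests on a shared number only. Number 3 in the DNMT3b comparison and number 2 between the knockdowns did not correlate best with their own number. In the paired comparison the block changed the call of no other member than those given in the text. With library size alone, 61.1% of the calls after DNMT3a siRNA were higher, against 48.3% with TMM, and the median of all genes moved by 0.05 on the log2 scale. Over the single members, 1323 alternative values kept their direction and side of the threshold, 65 passed it, 46 lost it and 42 changed sign. Those 42 belong to 19 results, of which 0 were called in the fit reported or under the alternative.

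After DNMT3a siRNA against control, leaving out libraries gave log2 ranges of -0.0047 to 0.0885 for Plxnb2, -0.12 to 0.20 for Sema3f, -0.26 to 0.39 for Sema3g, -0.69 to 0.34 for Sema4g, -0.029 to 0.28 for Sema6a, -0.67 to 0.10 for Sema6b and -0.11 to 0.26 for Sema6c. After DNMT3b siRNA against control they were -0.047 to 0.0895 for Nrp2, -0.10 to 0.037 for Plxna1, -0.24 to 0.016 for Plxna4, -0.16 to 0.039 for Sema3f, -0.10 to 0.54 for Sema3g and -0.34 to 0.43 for Sema6b. Nrp2 was at -0.0046 with no filter, Plxna1 at 0.0057 with library size alone, and Sema6b at 0.030 with library size alone, 0.16 with limma-voom and 0.055 with the replicate block. Between the knockdowns they were -0.044 to 0.064 for Plxnb2, -0.26 to 0.0795 for Sema3d, -0.039 to 0.30 for Sema3f, -0.29 to 0.0047 for Sema3g, -0.23 to 0.014 for Sema4d and -0.27 to 0.51 for Sema7a. Plxnb2 was at 0.018 with library size alone and 0.0056 with no filter, and Sema7a at -0.047 with limma-voom and -0.018 with the replicate block. The cause was not tested. Depth limits Sema4f, Plxnb3 and Sema5b most.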
